A study of Lotus japonicus with 14 samples.

Results

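The comparison set 1 library of uninoculated roots of the mutant apn1 against 1 library of uninoculated wild type roots in the legume Lotus japonicus. These are 2 of the 14 libraries of the series, chosen by their labels as the roots that received no rhizobia. Of 38476 gene models in the deposited tables, 32589 had a mean count of at least 10 over both roots and entered the comparison. The other 5887 did not, and 1809 of these had 0 counts in both roots.

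Legumes form root nodules with rhizobia, bacteria that fix nitrogen inside the nodule cells in exchange for carbon from the plant. A Fix- mutant forms nodules that fix little or no nitrogen. The mutant apn1 is named after ASPARTIC PEPTIDASE NODULE-INDUCED 1, a gene for a nepenthesin-type aspartic peptidase, and its nodules are known to fail with some strains of Mesorhizobium loti and to work with others. An uninoculated root holds no nodule, so this pair shows how the genotypes differ in the absence of the symbiont.

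Wild type plants were of the accession MG20 (Miyakojima), and the mutant was labelled Fix- in the design and spelled anp1 in the sample titles. Both genotypes grew in vermiculite with nitrogen-free B&D medium. The other 12 libraries came from nodule primordia and developing nodules cut from roots inoculated with the M. loti strains MAFF303099 (MAFF below) or TONO, at 5, 7 and 10 days after inoculation (dai), with 1 library per genotype, strain and day. They formed 6 pairs of an apn1 and a wild type library of the same strain and day. The age of the uninoculated roots, the allele and line history of apn1 and the number of plants per library are not stated in the sources used here. Roots and nodules differ in tissue, inoculation and possibly age, and these cannot be told apart.

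The wild type root library held 52272951 counts and the apn1 root library 54816945, and the nodule libraries held 33981124 to 58395305. The models carry identifiers only, and none of the 38476 matched the name table at hand (assembly LjGifu_v1.2). No gene name or role is therefore given, the mutated gene was not analysed here as a check of the labels, and root identity was not checked against marker genes. In bulk tissue, fewer cells of a type and less RNA per cell cannot be told apart. The counting is not stated to use strand, so overlapping, antisense or near-identical models may share reads.

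The roots of both genotypes were alike for most models, and a small share stood well apart. Differences below are apn1 minus wild type in log2 CPM (each count relative to its library's total, TMM-adjusted over all libraries), with 2 counts added to damp low values. Of the 32589 models, 27294 (83.8%) differed by less than 1.5-fold, and the median difference was −0.02 with quartiles of −0.25 and 0.22. At least 2-fold apart were 1723 models, 5.29% of those that entered. Of these, 919 (2.82%) were higher in the apn1 root and 804 (2.47%) were lower. With 1 library a side the difference has no replicate check, and the 2-fold limit is a limit of size only. The nearest models lay at 1.0002 just inside it and at 0.9998 just outside, with 352 models between 1 and 1.1 and 459 between 0.9 and 1.

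Large differences were fewer. At least 4-fold apart were 215 models, 124 higher and 91 lower in apn1, and at least 8-fold apart were 46, of which 26 were higher and 20 lower. Each count ratio was given an exact 95% binomial interval, which covers counting error alone, since there was 1 library a side. PCR copies cannot be told from separate molecules in these reads, so the interval may be too narrow even for that error. The interval excluded equal levels for 1684 of the 1723 models, and it lay wholly past 2-fold for 546, of which 314 were higher and 232 lower. The share past 2-fold was smaller at higher abundance, at 19.3% of the 4611 models with a mean root count of 10 to 50, 6.31% of 7175 models at 50 to 200, 2.08% of 11566 models at 200 to 1000 and 1.49% of 9237 models above 1000. In the most abundant class, 89 models were higher and 49 lower in the apn1 root.

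**Figure D1:**
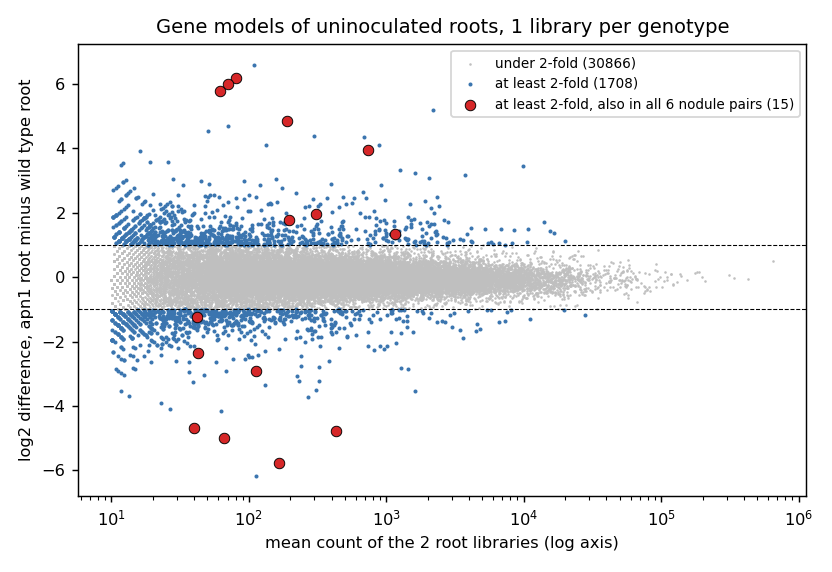
Difference between the uninoculated roots (apn1 minus wild type, log2) against the mean root count (log scale) for the 32589 models that entered, 1 point each. The spread narrows with the count, and 919 models lie at or above the 2-fold line and 804 at or below its negative.

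The models that stood apart held a small part of the RNA. The 919 higher models made up 0.392% of wild type root counts, against 1.104% in the apn1 root. The same models took 0.799% to 1.45% of the counts in the 6 wild type nodule libraries and 0.876% to 1.30% in the 6 apn1 nodule libraries, so the genotypes overlapped in nodules. Within pairs of the same strain and day, their share was lower in apn1 except with TONO at 5 and 10 dai. The 804 lower models made up 0.677% in the wild type root, against 0.276% in the apn1 root. In nodules they took 0.548% to 2.87% in wild type and 0.662% to 2.61% in apn1, again with overlap. Within pairs, the share of these lower models was higher in apn1, against the root direction, except with TONO at 10 dai. In that pair it was 2.87% in wild type and 2.23% in apn1. The 95% Wilson intervals of these shares, for counting error, were within 0.0055 percentage points either side.

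Among the most abundant models past 2-fold, chosen by CPM in the roots (which also depends on gene length), chr2.CM0021.750.r2.m had 12141 counts in the wild type root against 28426 in that of apn1. That was 226 against 492 CPM, a ratio of 2.18 (95% interval 2.13 to 2.22). For chr3.CM0616.60.r2.d the counts were 8855 in wild type and 24660 in apn1, a ratio of 2.59. In the other direction, chr1.LjT43O05.120.r2.a had 37814 counts in the wild type root against 17931 in that of apn1, 2.27-fold lower (2.23 to 2.31), and chr5.CM0096.20.r2.m had 25617 against 13584 counts, 2.03-fold lower (1.99 to 2.07). The last of these lay just under the limit, at −0.98, when only total counts were used for scaling. None of the 4 passed the test of the genotypes in nodules, where the edgeR adjusted p ran from 0.611 to 0.93.

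Whether the root differences were also present in nodules was asked in the 6 nodule pairs, which share no library with the roots. On balance the root set showed no shift in the root direction. The 1723 models, each signed so that positive means the direction seen in the roots, had a median nodule difference of −0.003 (mean of 6 pairs), and all 32589 models signed likewise also had −0.003. By pair, the signed medians were −0.04, −0.01 and 0.07 with MAFF at 5, 7 and 10 dai and −0.01, 0.02 and 0.02 with TONO, with an SD of 0.04 over the 6 pairs. For comparison, the median size of the root difference itself was 1.31 on the same scale. The mean nodule difference was within 0.5 either way for 1232 of the 1723 models (71.5%), a smaller share than the 29907 of all 32589 models (91.8%), so the root set was also farther apart in nodules, though in both directions. Models with very few nodule counts were kept in these shares, and for them the added counts draw the difference towards 0. The root set and all models also differ in abundance. At a mean root count of 10 to 50 the shares were 69.4% of the root set and 76.9% of all models. They were 72.6% and 89.3% at 50 to 200, 74.7% and 95.4% at 200 to 1000, and 76.1% and 96.6% above 1000.

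**Figure D2:**
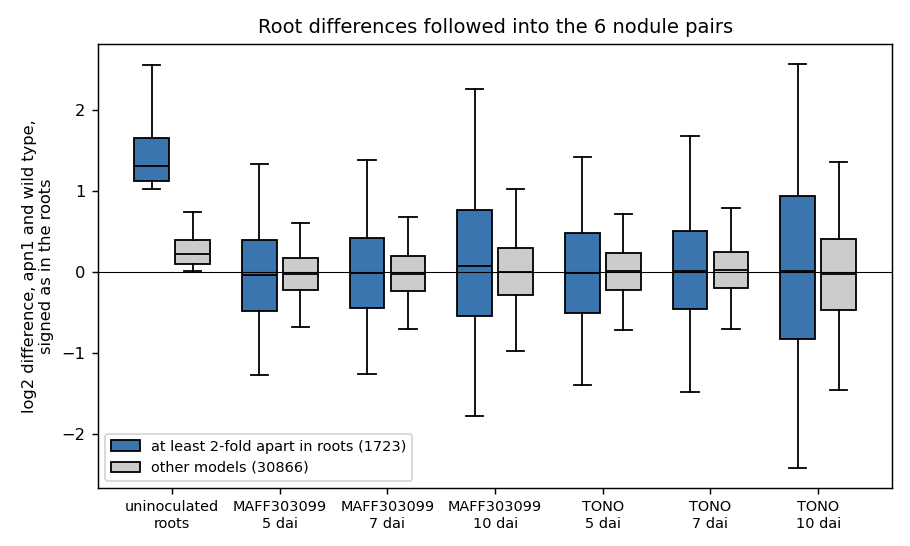
Difference (apn1 minus wild type, log2) signed by the direction in the roots, for the uninoculated roots and each of the 6 nodule pairs. Models at least 2-fold apart in the roots (1723) are drawn beside the other models that entered (30866). Boxes show quartiles and median and whiskers the 5th and 95th percentiles. Every median of a nodule pair lies close to 0, while the root position shows the size of the root difference.

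In each single pair, models from the root set passed 2-fold in both directions, somewhat more of them in the root direction. With MAFF at 5 dai, 163 of the 1723 models were at least 2-fold apart in the root direction (9.46%) and 151 in the opposite direction (8.76%). In that pair 2.24% of all models that entered were at least 2-fold above wild type and 2.05% as far below. With MAFF at 7 dai the counts were 176 and 157, where 2.84% of all models were higher and 2.21% lower, and at 10 dai they were 314 and 245, where 5.58% were higher and 5.7% lower. With TONO at 5 dai, 180 models followed the root direction and 178 opposed it, where 3.3% of all models were higher and 2.18% lower. The counts were 220 and 186 at 7 dai (4.27% and 2.33% of all models) and 415 and 365 at 10 dai (12% and 8.36%). The root set thus passed 2-fold more often than all models in both directions, and 891 of its 1723 models had a mean root count under 50. No nodule pair was 2-fold apart in the root direction for 849 models (49.3%), and none in the opposite direction for 869 (50.4%). Both counts take in models with too few nodule counts to show whether a root difference was present.

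A small group held its direction throughout. The sign of the root difference recurred in all 6 nodule pairs for 86 of the 1723 models (4.99%), against 965 of all 32589 (2.96%). The opposite sign was found in all 6 pairs for 51 models (2.96%), against 2.9% of all models. At least 2-fold in the root direction in all 6 pairs were 15 models, 8 higher and 7 lower in apn1, which is 0.871% of the 1723. Among the 30866 models less than 2-fold apart in the roots, 5 were at least 2-fold apart in all 6 pairs in the sign of their root difference (0.0162%). The 15 models had low to moderate counts, with a mean root count of 39.9 to 1163 and a median of 113, and their root differences ran from 1.24 to 6.17 in size. Their median signed nodule difference was 3.42, and for 10 of the 15 the nodule mean lay within 1 log2 unit of the root difference.

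The genotypes were also tested in the nodules alone with edgeR's quasi-likelihood test, using the strain and day of each pair as a block. Of 32549 models tested, 24 (0.0737%) passed a Benjamini-Hochberg adjusted p of 0.05, 16 higher and 8 lower in apn1, and 2665 had an unadjusted p under 0.05. Of the 1723 root models, 1470 were tested in nodules and 14 passed in the root direction (0.952%), against 0 that passed in the opposite direction by edgeR. DESeq2, run as an alternative, called 40 in the root direction and 11 in the opposite one. Of the 15 models at least 2-fold apart in all pairs, 11 passed the edgeR test, and the other 4 had adjusted p between 0.0530 and 0.163.

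Among the models higher in apn1 throughout, chr3.CM0005.530.r2.m was not counted in any wild type library. It had 0 counts in the wild type root against 166 in that of apn1, at least 51.5-fold higher when 0 is taken as up to 3 counts in that library. All 6 wild type nodule libraries also had 0, while the 6 apn1 nodule libraries had 74 to 152, with a median of 105.5. The groups did not overlap, and the edgeR adjusted p in nodules was 0.0351, which was above 0.05 without each of 5 of the 6 pairs, up to 0.110.

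The model chr3.CM0634.800.r2.m had 0 counts in the wild type root against 145 in that of apn1, at least 45.0-fold higher. Wild type nodules had 0 to 5 counts (median 0.5) and apn1 nodules 7 to 46 (median 39), again without overlap. The fitted nodule difference was 4.75 (SE 0.64, edgeR adjusted p = 0.0415), and it missed the threshold without each pair in turn, with adjusted p up to 0.184. Its neighbour in the numbering, chr3.CM0634.810.r2.m, had the highest count among the 9 models at 0 in a single root, with 0 counts in the wild type root against 224 in that of apn1, at least 69.4-fold higher. In nodules it had 0 to 17 counts in wild type and 15 to 55 in apn1. The wild type value of 17 was in the TONO 5 dai library, and the other 5 had 0 or 1 count. The edgeR adjusted p was 0.285, and 0.0136 without the pair TONO 5 dai. Other models higher throughout were chosen after their values were seen. The model chr4.CM0007.980.r2.a had 84 counts in the wild type root against 1414 in that of apn1 (edgeR adjusted p in nodules = 0.000221). For LjSGA_045610.1 the root counts were 10 and 378, and for LjSGA_046381.1.1 119 and 506 (edgeR adjusted p = 0.0023 for each). All of these kept an adjusted p under 0.05 in every alternative run. The remaining higher models had edgeR adjusted p of 0.0530 to 0.163. Of these, chr6.CM0314.720.r2.d and LjT44J06.210.r2.d passed under 5 of 14 alternatives each, and chr2.LjT18H02.60.r2.m under 1 of 13.

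Of the 9 models at 0 in a single root, 7 were at 0 in wild type and 2 in apn1. The latter had low counts. The model chr1.CM0221.220.r2.d had 26 counts in the wild type root against 0 in that of apn1, at least 9.32-fold lower, and 0 to 8 counts in the nodule libraries. For LjSGA_028626.1 the root counts were 23 and 0, at least 8.24-fold lower, and no nodule library had more than 2. Neither was tested in nodules, where the mean counts were too low.

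Of the 7 models lower in apn1 throughout, 5 were on a single contig, chr2.CM0065. By the size of the root difference, chr2.CM0065.430.r2.d led, with 320 counts in the wild type root against 4 in that of apn1, 86.0-fold lower (33.3 to 318). Wild type nodules had 90 to 227 counts (median 131) while apn1 nodules had 2 to 5 (median 2.5), with no overlap. The fitted nodule difference was −5.69 (SE 0.34, edgeR adjusted p = 0.000221). Next was chr2.CM0065.540.r2.d, with root counts of 126 and 2, 67.7-fold lower (18.4 to 565). It had 46 to 127 counts in wild type nodules against 0 to 6 in those of apn1, a fitted difference of −4.71 (SE 0.39, edgeR adjusted p = 0.0023).

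Other models of that contig were looked at after these values were seen. The model chr2.CM0065.450.r2.d was the most abundant of the group, with 814 counts in the wild type root against 30 in that of apn1, 29.2-fold lower (20.3 to 43.5). In wild type nodules it had 2273 to 7671 counts, which is 62.0 to 165 CPM against 15.1 CPM in the wild type root, and in apn1 nodules 26 to 66 counts, or 0.401 to 1.22 CPM. Its nodule difference of −6.76 (SE 0.19, edgeR adjusted p = 6.03e-07) had the smallest adjusted p of the 15. Numbered between 430 and 450, chr2.CM0065.440.r2.d had root counts of 77 and 1, 55 to 116 counts in wild type nodules but 0 in every apn1 nodule library (edgeR adjusted p = 0.0415, up to 0.110 when a pair was left out). In the same group, chr2.CM0065.400.r2.d, had root counts of 58 and 25 and a difference of −1.24, and 62 to 131 counts in wild type nodules against 12 to 22 in apn1 nodules (edgeR adjusted p = 0.00458).

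The 2 other lower models were on unplaced contigs and were also named after their values were seen. The model LjSGA_080004.0.2 had root counts of 196 in wild type against 26 in apn1, 8.11-fold lower (5.37 to 12.7), and a fitted nodule difference of −2.96 (SE 0.29, edgeR adjusted p = 0.00476). For LjSGA_046898.1.1 the root counts were 71 against 13, 5.87-fold lower (3.22 to 11.6), and its nodule difference of −2.07 (SE 0.35) did not pass (edgeR adjusted p = 0.135). The former missed the threshold under 1 of 14 alternatives, and the latter passed it under 1 of 13.

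**Figure D3:**
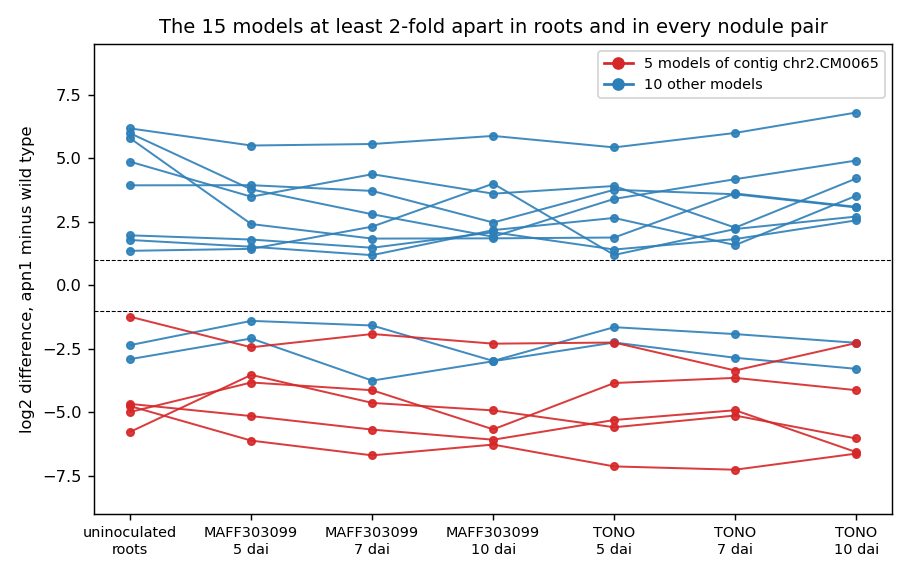
Difference (apn1 minus wild type, log2) in the roots and in each of the 6 nodule pairs for the 15 models at least 2-fold apart in the same direction in all 7 comparisons, 1 line each. The 8 models higher in apn1 and the 7 lower in apn1 stay on their own side of 0 in every pair.

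On chr2.CM0065, 10 of 60 models that entered passed 2-fold in the roots, 2 higher and 8 lower, and 5 of the 10 were among the 15. Of 585 contigs with at least 8 models, it was the only contig with 2 or more of the 15. These 5 models were not all adjacent. The 9 other models numbered between 400 and 540 had root differences of −1.06 to 0.51 and nodule differences of −0.75 to 0.73. Of the 46 models outside that stretch, 4 were 2-fold apart in the roots. Models 380 and 390, just before 400 in the numbering, were lower in the apn1 root (−1.08 and −2.81), with nodule means of 0.05 and −0.38. Models 190 and 650 were higher in the apn1 root (1.14 and 1.23), with nodule means of 0.14 and −0.88. Model numbers give the order along the contig only, since no coordinates of these models were used here.

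**Figure D4:**
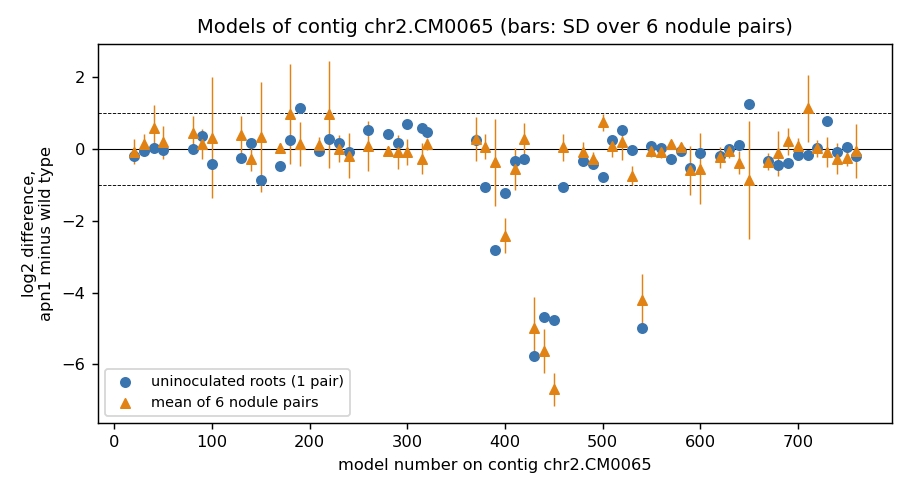
Differences (apn1 minus wild type, log2) of the 60 models on contig chr2.CM0065 in order of model number, in the roots and as the mean of 6 nodule pairs with SD bars. Models 400, 430, 440, 450 and 540 lie at or below −1 in both, while those between them lie nearer 0.

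Other contigs had larger shares of models past 2-fold in the roots. The highest was on chr6.LjT41B20, where 6 of 13 models (46.2%) passed 2-fold, 4 higher and 2 lower, and 0 of them were among the 15. In nodules, 1 of these 6 had its root sign in all 6 pairs and 2 had it in 5 pairs, with mean differences in the root direction of −0.22 to 0.79. On LjT09A12 the count was 3 of 9 models (33.3%) and on LjT13K07 4 of 13 (30.8%), each in mixed directions. No model past 2-fold was found on 227 of the 585 contigs (38.8%). By chromosome the share ran from 4.34% on chromosome 5 to 5.49% on chromosome 2, with 5.70% on contigs not placed on a chromosome. Of the 15 models, 6 were on chromosome 2, 2 on chromosome 3, 1 each on chromosomes 4 and 6, 0 on chromosomes 1 and 5 and 5 on unplaced contigs. Of the 6 on chromosome 2, 5 were those of chr2.CM0065. Of the 32589 models that entered, 4669, 3131, 3112, 3184, 2444 and 1938 were on chromosomes 1 to 6 and 14111 on unplaced contigs.

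Neighbouring models past 2-fold in the roots more often shared a direction than opposed each other. After a model past 2-fold, the next model that entered on the same contig was past 2-fold in the same direction in 71 of 942 cases (7.54%) and in the opposite direction in 19 (2.02%). After a model less than 2-fold apart, the next was past 2-fold in either direction in 855 of 17812 cases (4.80%). In 10 neighbouring pairs both models were at least 4-fold apart the same way, 6 pairs higher and 4 lower.

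Other models had large root differences beside small nodule differences. At least 4-fold apart in the roots, with a fitted nodule difference under 0.5 either way and a mean nodule count of at least 50, were 56 models. These were 3.25% of the 1723, 24 higher and 32 lower in the apn1 root. A small nodule difference was common, since 91.8% of all 32589 models had a mean nodule difference within 0.5. The largest was chr3.CM0208.430.r2.d, with 110 counts in the wild type root against 4397 in that of apn1, a ratio of 37.2 (30.8 to 45.3). Wild type nodules had 207 to 690 counts (median 358.5) and apn1 nodules 123 to 1650 (median 570), so the genotypes overlapped. The fitted nodule difference was 0.35 (SE 0.23, edgeR adjusted p = 0.694). In CPM the apn1 root, at 76.1, lay above every nodule library, which ran from 2.27 to 25.4, and the wild type root lay below them at 2.05.

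Its neighbour chr3.CM0208.410.r2.d had 60 counts in the wild type root against 1353 in that of apn1, a ratio of 21.0 (16.2 to 27.6). Nodules had 41 to 245 counts in wild type and 48 to 504 in apn1, and within pairs apn1 was higher in all 6, by 0.16 to 0.93. The fitted difference of 0.40 did not pass the test (edgeR adjusted p = 0.578). Of the lower models, chr4.CM0680.140.r2.m had 492 counts in the wild type root against 38 in that of apn1, 13.9-fold lower (10.0 to 19.9). Its nodule counts were 49 to 875 in wild type against 50 to 1025 for apn1, with overlap. The lowest value of both genotypes was in the TONO 5 dai library, at 49 and 50 counts.

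The model chr1.CM0378.200.r2.a had 2913 counts in the wild type root against 270 in that of apn1, 11.6-fold lower (10.2 to 13.2). In nodules it differed widely between days in both genotypes. With TONO, wild type had 176, 8168 and 20253 counts at 5, 7 and 10 dai, against 1039, 10032 and 7624 for apn1. With MAFF, wild type had 1018, 9603 and 14870, against 1588, 12608 and 11765 for apn1. The pairs differed by −1.74 to 2.44 and the fitted difference was 0.27 (SE 0.43, edgeR adjusted p = 0.887).

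The share of root models with the root sign in all 6 nodule pairs differed by abundance. It was 22 of 891 models (2.47%) at a mean root count of 10 to 50, 33 of 453 (7.28%) at 50 to 200, 19 of 241 (7.88%) at 200 to 1000 and 12 of 138 (8.70%) above 1000, while all models in those classes had 2.36%, 2.94%, 2.92% and 3.32%. The share at least 2-fold apart in all 6 pairs was 0.337%, 1.77%, 1.24% and 0.725%. Of the 16 models at least 4-fold apart with a mean root count above 1000, 11 were higher and 5 lower in the apn1 root. None of the 16 was 2-fold apart the same way in all nodule pairs, and their median signed nodule difference was −0.05. A mean nodule difference within 0.5 was found for 11 of the 16, a smaller share than the 96.6% of all models above 1000. Of all 215 models at least 4-fold apart, 11 were among the 15. A mean nodule difference within 0.5 was found for 129 of the 215, again a smaller share than the 91.8% of all 32589 models.

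Whether a root difference exceeded the nodule difference was tested in a model of all 14 libraries with 7 pairs as blocks, chosen after the data had been seen. It assumes that the single root pair varies as the nodule pairs do. Of 32589 models, 3 passed an edgeR adjusted p of 0.05 (0.00921%), and 1218 had an unadjusted p under 0.05. The 3 were chr4.CM0247.130.r2.m, chr3.CM0208.410.r2.d and chr4.CM0680.140.r2.m, with root differences that exceeded the nodule ones by 3.75 (SE 0.36, edgeR adjusted p = 0.0300), 3.99 (SE 0.39, edgeR adjusted p = 0.0300) and −4.01 (SE 0.43, edgeR adjusted p = 0.0442). Named for this result, chr4.CM0247.130.r2.m had 1570 counts in the wild type root against 18609 in that of apn1, a ratio of 11.02 (10.5 to 11.6), and 1712 to 6019 counts in wild type nodules against 1317 to 6787 in apn1 nodules. The calls were not stable: leaving out 1 nodule pair gave 0 models in 4 cases (MAFF 5, 7 and 10 dai and TONO 7 dai), 1 without TONO 5 dai and 8 without TONO 10 dai.

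Of the 51 models whose root difference was opposite in all 6 nodule pairs, 32 were higher and 19 lower in the apn1 root, and none passed the edgeR test in nodules. At least 2-fold in the opposite direction in every pair was 1 model, chr2.CM0803.940.r2.a. It had 42 counts in the wild type root against 12 in that of apn1, and 3 to 32 counts in wild type nodules against 21 to 75 in apn1 nodules. Its mean nodule difference was 1.501 against −1.73 in the roots (edgeR adjusted p = 0.355 in nodules). It passed the nodule threshold under 1 of 13 alternatives. The model chr3.CM0792.360.r2.d had 569 and 303 counts in the wild type and apn1 roots, a difference of −1.01 that lay just under 2-fold in 4 of the alternatives. Its nodules had 94 to 195 counts in wild type and 137 to 1379 in apn1 (mean difference 1.68, edgeR adjusted p = 0.452). Of those higher in the apn1 root, LjSGA_015992.1 had root counts of 93 and 467 and a mean nodule difference of −1.26 (edgeR adjusted p = 0.645), which was −0.50 without the pair MAFF 10 dai at −5.08, and LjSGA_074067.1 had 13 and 37 counts and −1.66 (edgeR adjusted p = 0.526).

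For 38 of the 1723 models the question could not be put to the nodules, since their mean nodule count was under 3. Of these, 15 were higher and 23 lower in the apn1 root. The most abundant was LjSGA_056821.1, with 464 counts in the wild type root against 223 in that of apn1, 2.24-fold lower (1.90 to 2.64), and 1 count over all 12 nodule libraries. For chr4.CM1616.220.r2.d the root counts were 256 and 100, 2.75-fold lower (2.18 to 3.50), with 0 to 8 counts in each nodule library. Those higher in apn1 were low in the root too, such as LjSGA_074353.1 with 9 and 32 counts and LjSGA_039757.1 with 13 and 31, and the latter had a difference of 0.89 with 5 counts added. The 38 models were kept in all counts, shares and medians given above over the 1723. At such counts the 2 added counts draw a nodule difference towards 0, so a small one does not show equal levels. More widely, 253 of the 1723 models were not tested in nodules with edgeR, as their mean nodule counts were too low.

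A last comparison used groups of models defined in the nodules alone. Models at least 2-fold lower at 10 than at 5 dai in all 4 combinations of genotype and strain numbered 1957, and models at least 2-fold higher numbered 1341. In the uninoculated roots, the 1830 late-low models that entered were shifted towards lower values in apn1. Their median root difference was −0.26, with quartiles of −0.51 and −0.01, and 75.4% lay below 0, against a median of −0.02 and 51.8% for all models. At least 1.5-fold lower in the apn1 root were 19.1% of them, against 8.07% of all models. At least 2-fold lower were 91 (4.97%) and at least 2-fold higher 35 (1.91%), where all models had 2.47% and 2.82%.

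The shift was present at all abundances, with medians of −0.15, −0.27, −0.28 and −0.25 in the classes of 10 to 50, 50 to 200, 200 to 1000 and above 1000 counts. The 1171 late-high models that entered had a median root difference of 0.01. At least 2-fold above wild type were 59 of them (5.04%) and at least 2-fold below 77 (6.58%), where all models had 2.82% and 2.47%. The late-high models were thus past 2-fold more often in both directions, with no shift of the median. With 1 library a side, the shift of the late-low models cannot be set against a spread between roots.

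**Figure D5:**
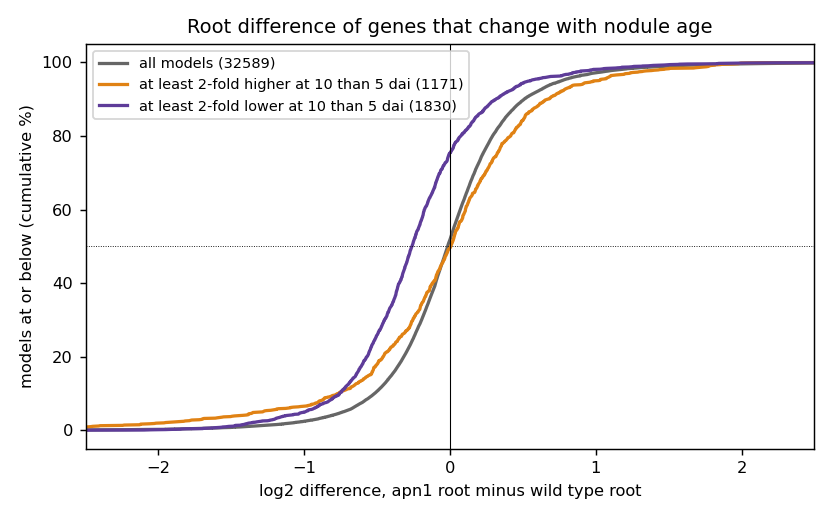
Cumulative share of models (percent) against the difference between the uninoculated roots (apn1 minus wild type, log2), for models lower at 10 than at 5 dai in nodules, models higher at 10 than at 5 dai and all models that entered. The curve of the late-low models lies left of that of all models through most of the range, with 75.4% below 0 against 51.8% of all models.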

How the data were processed

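RNA was measured in 14 libraries, 1 per condition. The authors deposited 12 tables, each with the read counts of 1 nodule library and of the uninoculated root of the same genotype, per the file headers. The deposited normalized signal, made with iDEGES/DESeq per the file headers, is scaled within each table and was not used in tests. Per the submitters' processing notes the tools were Bowtie2 2.0.2 and DESeq. The build, annotation, counter and use of strand are not stated in the sources used here. Per the labels' protocols, plant and gram-negative bacterial rRNA was removed with Ribo-Zero before ScriptSeq library preparation. Each root's counts are repeated identically in 6 tables and were used once.

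Models with a mean of at least 10 counts over the roots, after scaling to equal totals, entered. Log2 CPM used TMM over all 14 libraries and a prior count of 2. No test was made between the roots. For folds, a count of 0 was set to 3 counts per library. Nodules were tested with edgeR's quasi-likelihood test on the counts with the 6 strain and day pairs as blocks (5 residual degrees of freedom, biological coefficient of variation 22.3%), in models with a mean nodule count of at least 10. The pairing comes from the strain and day in the titles. Adjusted p-values are two-sided Benjamini-Hochberg values over all models tested. No condition has a replicate, so p-values measure only the spread between pairs. Total counts ran from 33981124 to 58395305. The fits were also run on simulated counts with 2-fold and 4-fold differences added, as a check of the size of the fitted differences only. The simulated counts had a fixed dispersion and no pair effects, so this does not measure the error rate of the tests in these data.

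Named models were at most 2 higher and 2 lower per class, by the size of the root difference, by the count where 1 root was at 0 and by CPM for the most abundant models past 2-fold. The classes were persistent in nodules, 0 in 1 root, level in nodules, opposite in nodules, abundant, and near 0 in nodules. Models outside this rule, among them those of chr2.CM0065 other than 430 and 540 and chr4.CM0247.130.r2.m, were chosen after their values were seen. The comparison and lists were chosen with earlier results of these data known. Alternatives were other scalings, prior counts and filters, DESeq2, limma, no block and each pair left out. Tools were edgeR 4.0.16, DESeq2 1.42.0 and limma 3.58.1 in R 4.3.3, and matplotlib 3.10.9 in Python 3.11.15.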

Additional observations from a re-analysis of the deposited data

Results flagged for a closer look

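In 3 models the genotype difference in uninoculated roots differed from that in nodules by a test of the difference itself (edgeR's quasi-likelihood test on all 14 libraries with pairs as blocks, Benjamini-Hochberg adjusted). The difference between root and nodules was 3.99 on the log2 scale for chr3.CM0208.410.r2.d, 3.75 for chr4.CM0247.130.r2.m and −4.01 for chr4.CM0680.140.r2.m. The first and second were higher in the apn1 root and the last was lower, while their fitted nodule differences were 0.40, −0.29 and 0.23. The single root pair is assumed to vary as the nodule pairs do. The test was chosen after the data had been seen, and the calls were not stable when single nodule pairs were left out.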

How the results depend on the processing

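The number of models at least 2-fold apart in the roots was 3183 with a filter of 1 count in either root and 832 with a mean count of 50, and 1415 to 1886 under the other scalings, prior counts and filters. The models 2-fold apart throughout numbered 12 to 17 under all alternatives. In nodules DESeq2 called 212 models, 40 of them root models in the root direction. Leaving out 1 nodule pair gave 12 to 22 nodule calls (12 without MAFF 7 dai, 13 without TONO 7 dai), 8 to 14 root models called in nodules (8 without MAFF 7 dai or TONO 7 dai, 9 without TONO 5 dai) and 0 to 8 models that differed between root and nodules. An alternative left out the pair block and used a term per combination of genotype and strain with day as an additive term. It gave 27 nodule calls and 17 root models called. The median root difference of the late-low models was −0.22 with lists from wild type alone and −0.20 with total count scaling, and that of the late-high models was −0.067 with lists at 4-fold. The sign of the late-high median and of the signed nodule median, both near 0, turned with scaling and filter. No model named in the report changed sign in the roots under the alternatives run; those under other observations were not run. Of the 1723 models, 891 had a mean root count under 50 and 546 had a counting interval wholly past 2-fold. The cause of these changes was not tested.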

Other observations

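Of the 24 models that passed the nodule test, 23 entered the root comparison and 21 of these had the same sign in the roots. Less than 2-fold apart in the roots were 9, of which 7 were higher and 2 lower in apn1 nodules, with root differences of −0.58 to 0.94. Chosen after its values were seen, chr3.CM0996.1250.r2.d had 37 counts in the wild type root against 42 in that of apn1, or 0.689 and 0.727 CPM. Its counts were 93473 to 476414 in wild type nodules against 12677 to 93029 in those of apn1 (difference −2.16, SE 0.27, edgeR adjusted p = 0.0261). Also chosen in this way, chr1.CM0600.260.r2.d had 113 and 118 counts in the wild type and apn1 roots. Its nodules had 6 to 16 counts in wild type and 18 to 170 in apn1 (difference 2.81, edgeR adjusted p = 0.0415).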
